A study of Mus musculus with 12 samples.

Results

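Repeat-derived RNA was described in the control 2-cell embryos of a mouse series, which are 6 of the 12 libraries deposited and are labelled WT. They were chosen by their genotype label alone, and the libraries of embryos without maternal Kdm4a were not used here. Each control embryo came from a wildtype C57BL/6 oocyte fertilised by sperm that lacked Kdm4a, the gene of a histone demethylase. The maternal allele was therefore present and the paternal allele was knocked out in all 6 libraries, and none of them was wildtype at both alleles. Embryos were collected 1.5 days after fertilisation, washed and lysed in individual tubes, and ribosomal RNA was depleted within a stranded kit made for very little input. The labels do not say how many embryos or mothers stand behind a library, so the errors and p-values below measure only the spread between these samples, which may be technical. The tables held repeats and no genes, so the level of Kdm4a was not checked.

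Repeats fill much of the mouse genome, and most are copies of mobile elements. LTR retrotransposons carry an internal part, which codes for proteins in some elements but not in all, between a pair of terminal repeats. The terminal repeats hold the promoter, and recombination leaves many copies as lone terminal repeats. MERVL, with its terminal repeat MT2_Mm, is known for a burst of transcription at the 2-cell stage, and the MT and ORR1 elements of the ERVL-MaLR family are known for abundant transcripts in the oocyte and early embryo. LINE elements copy themselves through their own proteins, SINE elements depend on those proteins, and simple repeats, satellites and structural RNAs complete the annotation.

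The 6 libraries held 10946392 to 18902360 counts, with the lowest total in WT replicate 2 and the highest in WT replicate 4. A count table of 18538 repeat names was given for each library, of which 17171 were simple repeats. All 6 libraries had a count for 3742 names, 1 to 5 libraries had one for 4584, and 10212 names had none in any library. Of the 667 LTR names, 627 were counted in all 6 libraries, as were 188 of 201 LINE names and all 38 SINE names. All values below are shares of a library's repeat counts, unless another base is named, or CPM, a scale on which 0.1% of the counts is 1000. Such a share grows with the number and length of a repeat's genomic copies, which were not analysed here. A rise in the share of one repeat and a fall in the amount of the others cannot be told apart, nor can fewer embryos be told apart from less RNA per embryo.

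WT replicate 2 stood apart from the other libraries. Over the 526 names with a mean of at least 100 CPM, it was the lowest library for 287 names, against 26 to 70 names for each of the others. Its median distance from the median of each name over the libraries was 0.20 on the log2 scale, whereas the others lay between 0.06 and 0.13. Both values are of shares without rescaling. The TMM factor, which rescales a library, was 0.875 in WT replicate 2 and 0.960 to 1.09 in the others. The 287 names were thus not shown to be low one by one, and the part of a shift common to most names was not tested. The first principal component of the log2 shares held 53.1% of the variance, and WT replicate 2 had a score of 6.45 on it while the others ranged from -3.47 to 0.30. No 2 libraries were alike within counting noise, since the chi-square statistic per degree of freedom was 24.98 to 144 over the 15 pairs. WT replicate 2 was kept, and values without it are given beside the measures of spread and the structural RNAs.

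LTR elements made up most of the repeat RNA. They held 55.9% ± 2.05 of counts (SD, n = 6), with 54.1% in WT replicate 5, the lowest, and 59.6% in WT replicate 2, the highest. SINE elements followed with 13.9% ± 0.958, and LINE elements with 10.9% ± 0.902. This order of the leading classes was the same in every library. Simple repeats held 6.27% ± 0.377 and ribosomal RNA, which the kit depletes, still held 5.74% ± 0.488. Satellites held 2.22% ± 0.257, low-complexity sequence 2.01% ± 0.131 and DNA transposons, which move without an RNA copy and are old in the mouse, 1.25% ± 0.0806. Each remaining class held at most 0.457%.

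Neighbours in the order of the 20 classes were compared within libraries by a two-sided exact sign-flip permutation test, with Benjamini-Hochberg adjustment over the 19 neighbour pairs. The smallest p that 6 libraries allow is 0.03125, and 12 pairs reached it, with an adjusted exact p of 0.0495. The adjusted value depends on how many pairs reach this p, not on the size of their differences. Among them were LTR above SINE, SINE above LINE and LINE above simple repeats, each in 6 of 6 libraries. Simple repeats lay above ribosomal RNA in 5 of 6 libraries (adjusted exact p = 0.0913), and satellites could not be ordered against low-complexity sequence (adjusted exact p = 0.119). The classes of 7SL RNA, 7SK RNA and transfer RNA also had no order beyond their spread, and 7SL RNA lay below the Unknown class in WT replicates 2 and 6 but above it in the other 4 libraries.

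**Figure D1:**
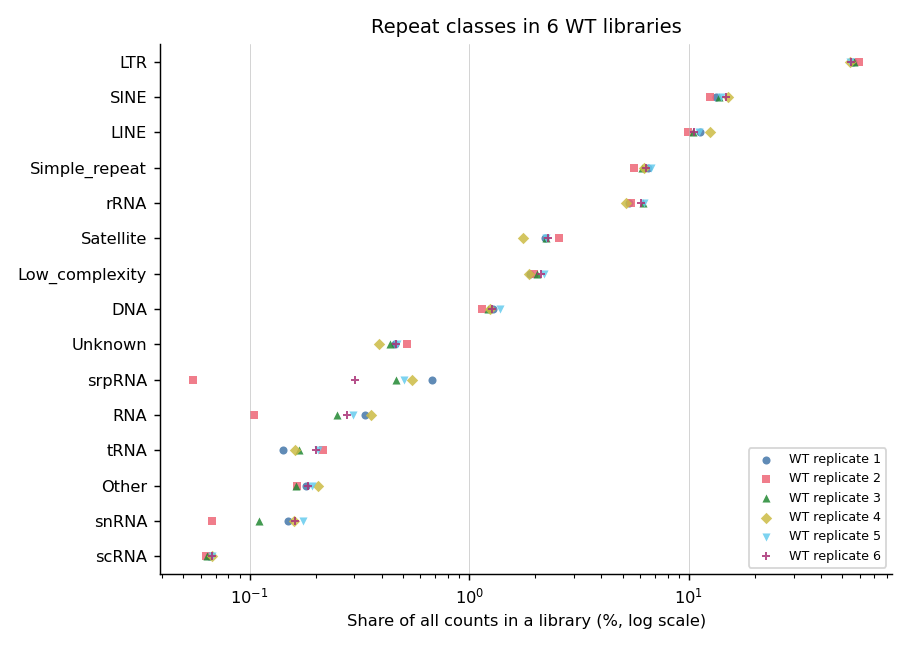
Share of all counts in a library (horizontal axis, percent, log scale) for the 15 repeat classes with a mean of at least 0.05%, with 1 point for each of the 6 WT libraries. LTR elements lie near 55.9% in all libraries, and WT replicate 2 lies far to the left of the others for srpRNA (7SL), RNA (7SK) and snRNA.

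Counts were concentrated in few names. Between 17 and 24 names held 50% of a library's counts, 88 to 117 held 80%, and 201 to 247 held 90%. The 20 highest names of each library, taken library by library, held 49.5% ± 2.41 together, and the share was highest in WT replicate 2, at 53.6%. Of the 20 names with the highest mean share, 15 were LTR elements and 13 of the 15 were internal parts. The ERVL-MaLR family gave 10 of the names and the ERVL family, to which MERVL belongs, gave 5. The others were the B2 elements B3 and B2_Mm2, the large ribosomal RNA, the satellite MMSAT4 and A-rich sequence.

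The internal part of MERVL, MERVL-int, had the highest mean share of any name. It held 5.71%, 7.004%, 5.96%, 6.07%, 4.42% and 6.01% of counts in WT replicates 1 to 6, a mean of 5.86% ± 0.835 (n = 6). WT replicate 5 was low and WT replicate 2 high, and the other 4 libraries lay close together. MTA_Mm-int, the internal part of the youngest MT element, came next with 5.70%, 5.59%, 5.65%, 4.90%, 5.78% and 4.99% (5.43% ± 0.384). Here WT replicates 4 and 6 were low, and WT replicate 5 was the highest. MERVL-int exceeded MTA_Mm-int in 5 of 6 libraries, and this difference did not pass the test (exact sign-flip permutation p = 0.344).

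Large-subunit ribosomal RNA, LSU-rRNA_Hsa, had rank 3 at 5.30% ± 0.478. MERVL_2A-int (4.24% ± 0.609), ERVL-B4-int (4.07% ± 0.602) and, lower, ERVL-int (1.70%) are further internal names of the ERVL family. Reads may be shared among these names and MERVL-int, so their separate levels are uncertain, and together the 4 names held 15.9% ± 2.31. The sum ranged from 11.9% in WT replicate 5 to 19.0% in WT replicate 2. MTA_Mm, the terminal repeat of MTA, held 3.01% ± 0.272, and ORR1A0-int (1.97%), ORR1A1-int (1.84%), MTB-int (1.66%) and MTC-int (1.61%) followed among the MaLR internal parts. The 10 MaLR names in the top 20 held 20.9% ± 1.44 together, from 18.8% in WT replicate 4 to 22.5% in WT replicate 5.

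The order within the top 20 was only partly resolved. Of 19 neighbour pairs, 6 kept one order in all 6 libraries, among them MTA_Mm above ORR1A0-int. Each of the 6 had the smallest exact sign-flip permutation p that 6 libraries allow, 0.03125, which was 0.0990 after adjustment, so none passed. That adjusted value was set by how many pairs reached the smallest p, not by the size of the gaps, so it cannot decide the order of these 6. The markers that define the labelled stage were abundant in all libraries. MERVL-int and MT2_Mm together held 7.06% ± 1.01, between 5.34% and 8.47%, and 4 names known from the oocyte (MTA_Mm, MTA_Mm-int, MTB_Mm and MTC-int) held 10.7% ± 0.767. No list for cumulus or other somatic cells was used, since no repeat name defines them.

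**Figure D2:**
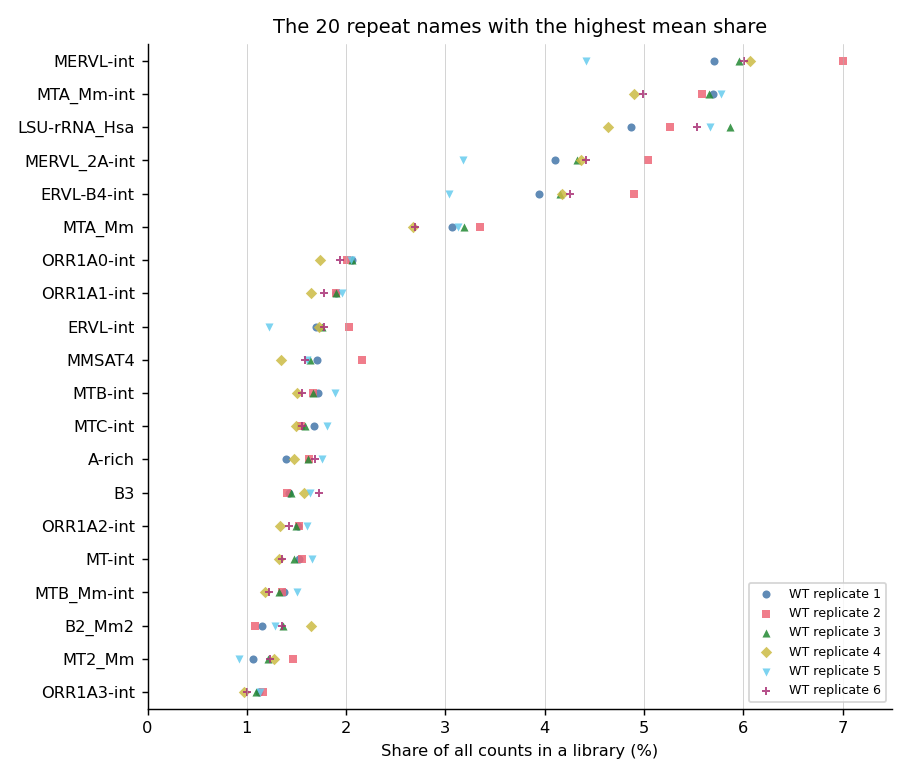
Share of all counts in a library (horizontal axis, percent) for the 20 repeat names with the highest mean share, with 1 point for each of the 6 WT libraries. The 5 ERVL names, MERVL-int, MERVL_2A-int, ERVL-B4-int, ERVL-int and MT2_Mm, are lowest in WT replicate 5 and highest in WT replicate 2.

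At the level of families, ERVL-MaLR led with 30.2% ± 1.88 of all counts and ERVL followed with 19.7% ± 2.54. Of the LTR counts alone, ERVL-MaLR made up 54.0% ± 3.39 and ERVL 35.2% ± 3.75. In WT replicate 5 these were 59.9% and 28.3%, the most uneven pair of values, and in WT replicate 2 they were 52.1% and 38.8%. ERVK, the family of IAP and ETn elements that still cause mutations in mice, held 4.78% ± 0.355 of all counts spread over 283 names. ERV1 held 1.19% ± 0.0634. Among the other families, L1 held 9.98% ± 0.911, B2 5.28% ± 0.614, Alu, which contains the mouse B1 elements, 4.75% ± 0.287, and B4 2.84% ± 0.145.

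Internal parts carried most LTR counts. The 146 internal names held 68.1% ± 1.05 of the LTR counts and the 521 terminal names held the rest, with a range over libraries of 66.3% in WT replicate 5 to 69.4% in WT replicate 2. The families differed in this share. It was 80.7% ± 1.57 in ERVL and 68.1% ± 0.566 in ERVL-MaLR, but 38.0% ± 1.77 in ERV1 and 24.1% ± 1.11 in ERVK. Without the 3 names that may share reads with MERVL-int it was 60.9% ± 2.21 in ERVL and 61.2% ± 0.720 over all LTR elements.

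Internal and terminal parts of the same element were set side by side for 76 pairs of names, and 33 pairs had both means at or above 100 CPM. Of the 33, the internal part had more counts in all 6 libraries for 21 pairs, the terminal part did for 10, and RMER17A and ORR1B2 changed order between libraries. In the ERVL-MaLR family, 14 of 22 pairs had more internal counts and 7 had more terminal counts. In the ERVK family, 5 of 7 pairs had more internal counts and 1 had more terminal counts. The low internal share of ERVK as a whole, 24.1%, was thus not the pattern of its few abundant pairs. These are ratios of reads, not of molecules, because the lengths of the parts were not given. The filter shaped these numbers of pairs, since most pairs left out had few internal counts and more terminal ones. Examples were MLT1A0, with 8.14 CPM internal against 806 CPM terminal, and MTE2a, with 25.3 against 1198 CPM. The pairs of IAPLTR3, MER34B, RLTR42, IAPEz-int and ETnERV-int were left out with more internal counts. The excess of internal-rich pairs therefore holds for pairs abundant in both parts, not for all 76.

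Among the 33 pairs, the highest log2 ratio of internal to terminal counts belonged to the old MaLR element MLT1F. Its ratio was 3.52 to 4.19 over the libraries, with means of 1937 CPM for MLT1F-int and 131 CPM for MLT1F. ORR1G, another old element, followed with 2.82 to 3.41. The other MLT1 pairs, all outside the 33, had more terminal than internal counts on average. Their mean log2 ratio was -4.57 for MLT1F1 and -4.42 for MLT1F2, for example. The shares of MLT1F-int and MLT1F did not rise together over the libraries (Pearson's r = -0.527, exact permutation p = 0.2875). Whether MLT1F-int counts come from the same copies as MLT1F counts was not tested. MERVL-int over MT2_Mm was 2.25 to 2.42, and the ratio was nearly the same in 5 libraries, with the highest value in WT replicate 1. MTA_Mm-int over MTA_Mm was 0.74 to 0.89. At the other end, ORR1C2 had far more terminal than internal counts, with a log2 ratio of -3.46 to -3.02, and RMER17C, MTE2b and RMER15 lay on the same side. A pair of IAP names, IAPEz-int and IAPLTR1_Mm, was outside the 33, since the terminal name had a mean of 69.2 CPM. The internal name had 1349 CPM, and the log2 ratio was 4.17 to 4.496. IAPLTR1_Mm is only 1 of several IAP terminal names, so this ratio is not that of IAP as a whole. Over all 25 IAP names, internal parts gave 74.7% of pooled counts, and terminal names held 0.103% of all counts.

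**Figure D3:**
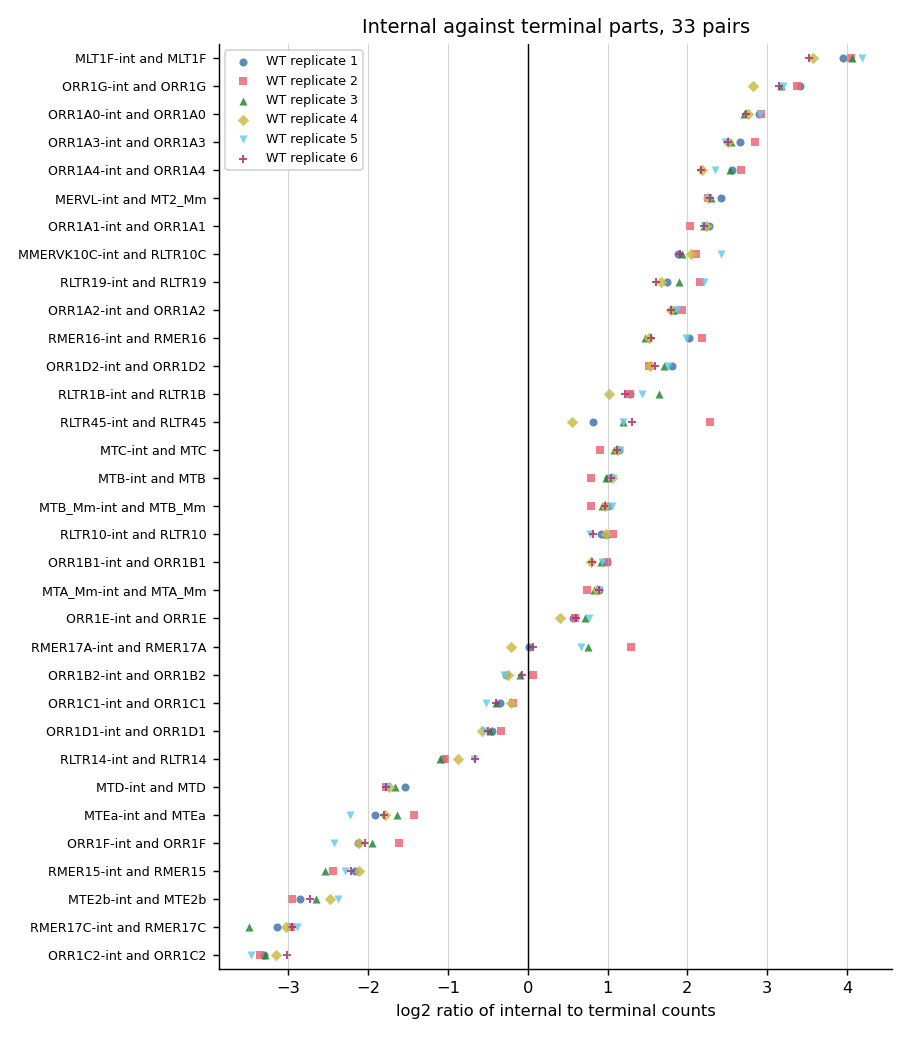
Log2 ratio of internal to terminal counts (horizontal axis) for the 33 pairs with both means at or above 100 CPM, with 1 point for each of the 6 WT libraries and the vertical line at equal counts. Points of 21 pairs all lie to the right of the line and those of 10 pairs all lie to the left.

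Whether the parts of an element rose and fell together over the libraries was asked with correlations of the shares in all 33 pairs, adjusted over the 33. The pair MERVL-int and MT2_Mm passed with Pearson's r, at 0.963 over the 6 libraries, with an exact permutation p of 0.00139 that was 0.0458 after adjustment. No smaller unadjusted p is possible with 6 libraries. This was 1 of the 33 pairs, or 3.03%. Its Spearman's rho was 1.0, the highest possible value (exact permutation p = 0.00278, adjusted exact p = 0.0917). With 6 libraries rho can give no lower p, so 1 pair alone could not pass, and this test cannot decide. MT2_Mm held 1.19% ± 0.185, and, like MERVL-int, it was lowest in WT replicate 5 and highest in WT replicate 2. Without these 2 libraries, the farthest from the median, r was 0.999. No other pair passed with Pearson's r on shares, and none passed with Spearman's rho, where 1 perfect pair alone cannot pass. With TMM factors, which rescale the libraries, 10 pairs passed with Pearson's r, so the count depended on the scaling. The call was lost when any 1 library was left out, with adjusted p of 0.0567 to 0.283 in the exact permutation test, but 5 libraries allow no p below 0.00833, so this says little about the stability of the relation. RLTR10 came closest (r = 0.961, exact permutation p = 0.00417), the median r over the pairs was 0.400, and 7 pairs had an r below 0. ORR1F had the lowest, -0.797 (exact permutation p = 0.0333).

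Elements of the MT series, which run by age from MTA, the youngest, to MTE, fell in share at each step in age. MTA held 8.45% ± 0.638 of counts, MTB 4.51% ± 0.372, MTC 2.37% ± 0.151, MTD 0.747% ± 0.0325 and MTE 0.456% ± 0.0284. Each step down held in 6 of 6 libraries, and the log2 ratio of MTA to MTE was 4.21 ± 0.17 (SD, n = 6). The makeup of the reads changed along the series too. Internal parts gave 64.3% of pooled counts in MTA, 66.3% in MTB and 68.0% in MTC, but 23.4% in MTD and 21.99% in MTE. With terminal names alone the log2 ratio of MTA to MTE was 3.08. MT-int, which names no age group, was left out of the series.

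The ORR1 series was dominated by its youngest group but was not ordered by age after it. ORR1A held 8.14% ± 0.485, which was 70.8% of all ORR1 counts. ORR1D came next with 1.20%, and then ORR1B with 0.774%, ORR1C with 0.614%, ORR1E with 0.309%, ORR1G with 0.274% and ORR1F with 0.178%. ORR1E lay above ORR1G in 5 of 6 libraries, and the other steps of this order held in 6 of 6. The log2 ratio of ORR1A to ORR1G was 4.90 ± 0.16, and with terminal names alone it was 5.65. MLT elements, the ancient members of the family, held 0.676% ± 0.0292 over 61 names, with MLT1F-int the highest at 0.194%.

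Within the MT2 group, MT2_Mm and MERVL-int together exceeded the 5 older MT2 names, which held 1.80% ± 0.0907, by 1.96 ± 0.17 on the log2 scale. The older names in this group are terminal repeats only. With MERVL-int left out the direction turned, and the log2 ratio of MT2_Mm to the older MT2 names was -0.61, and MT2C_Mm was the highest of the older names at 0.780%. The older MT2A and MT2B had nearly the same share in every library, whereas MT2_Mm did not. These 2 of the 5 older names were picked for their small spread. The other older names varied more, with a biological coefficient of variation from edgeR of 0.159 for MT2C_Mm, 0.163 for MT2B2 and 0.136 for MT2B1. On that measure MT2A had 0.108 and MT2_Mm 0.182. Among young ERVK elements, IAP held 0.408% ± 0.0553 over 25 names, with IAPEz-int at 0.135%, and ETn held 0.130% ± 0.0149.

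LINE-1 elements followed no simple order of age. Rodent LINE-1 groups, such as Lx, held the most, 4.28% ± 0.491 over 32 names, followed by older mouse L1Md names with 2.32% ± 0.248. The young mouse groups L1MdTf, L1MdGf and L1MdA, which include the copies still able to move, held 1.83% ± 0.155, and mammal-wide names held 1.44% ± 0.125. The log2 ratio of young mouse to rodent was -1.23 ± 0.13, and that of young mouse to mammal-wide names was 0.34 ± 0.16. The last value depended on which names were called young. With only L1MdTf, L1MdGf_I, L1MdGf_II and L1MdA_I to L1MdA_III, a choice made after seeing the data, it was 0.01. WT replicate 5 had the lowest ratio of young mouse to mammal-wide names, 0.06, while the others lay between 0.26 and 0.46.

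The 25 L1Md names differed up to 29.2-fold in share. L1MdA_II was the highest, with 0.705%, 0.895%, 0.736%, 0.763%, 0.568% and 0.744% of counts in WT replicates 1 to 6 (0.735% ± 0.105). Like MERVL-int it was lowest in WT replicate 5 and highest in WT replicate 2. L1MdF_III (0.586% ± 0.0771) came second and had the same lowest and highest libraries. L1MdTf_I, a name for copies of the youngest kind, had the lowest share, 0.0252%. Lx9, an older rodent name, held 0.460% ± 0.0179 with little spread. LINE elements outside L1, such as MamRTE1 at 0.234%, held 0.941% ± 0.0247 together.

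**Figure D4:**
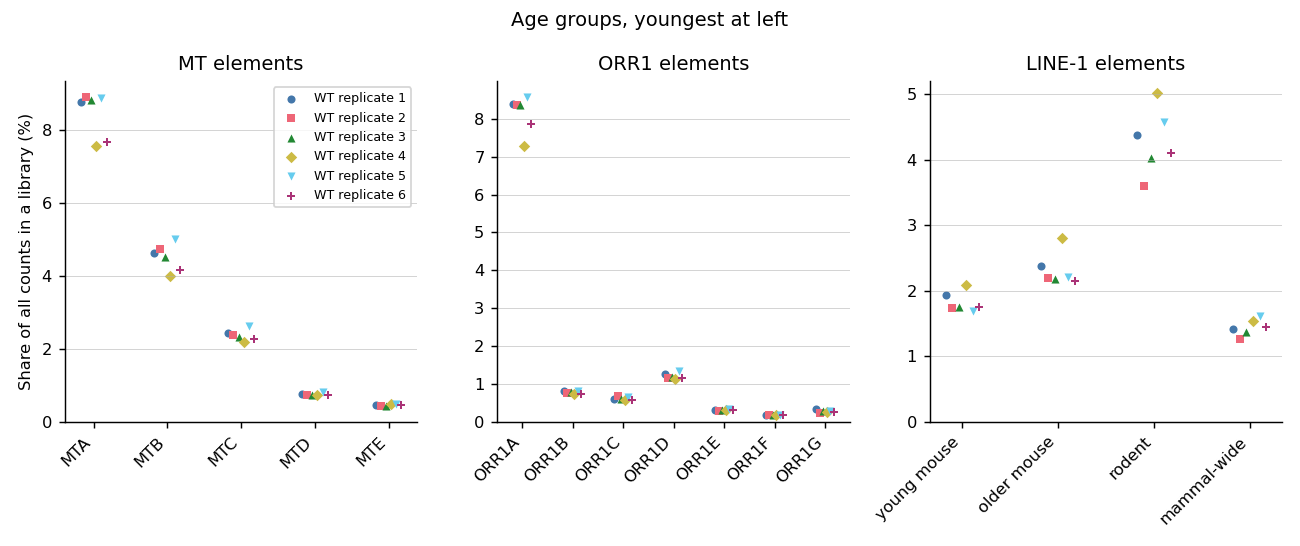
Share of all counts in a library (vertical axis, percent) for age groups of MT, ORR1 and LINE-1 elements, from the youngest at the left, with 1 point for each of the 6 WT libraries. MT shares fall from MTA to MTE, ORR1A stands alone at the top of its series, and rodent LINE-1 names exceed both the young mouse and the mammal-wide names.

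SINE elements were led by B3 at 1.54% ± 0.131, an older B2 element, and by B2_Mm2 at 1.31% ± 0.199, a young one. Young B2_Mm names held 3.08% ± 0.522 together and B3 names 2.20% ± 0.168, with a log2 ratio of 0.47 ± 0.21 that was above 0 in all libraries. Young B1 names went the other way, with 1.61% ± 0.157 against 3.14% ± 0.140 for older B1 names and a log2 ratio of -0.97 ± 0.09. ID_B1, a B4 element, held 0.991% ± 0.0521. ID elements held 0.403% and MIR elements, which are ancient, 0.534%. Among DNA transposons the leading names were Tigger6 at 0.117%, URR1A at 0.106% and URR1B at 0.103%.

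Satellites were mostly MMSAT4, at 1.67% ± 0.267, with the highest share, 2.16%, in WT replicate 2. GSAT_MM, the major satellite of mouse pericentromeres, held 0.434% ± 0.117 and was low in WT replicates 2 and 4 at 0.310% and 0.295%. IMPB_01 held 0.0901%. MurSatRep1, of the Unknown class, held 0.409% ± 0.0458. A-rich sequence was the main part of low complexity at 1.59% ± 0.135, followed by GA-rich sequence at 0.376%.

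Structural RNAs set WT replicate 2 apart most clearly. 7SLRNA, the RNA of the signal recognition particle, held 0.675%, 0.0553%, 0.462%, 0.550%, 0.504% and 0.302% in WT replicates 1 to 6. WT replicate 2 was at 0.111 of the mean of the others, and WT replicate 6 was the next lowest. 7SK, an RNA that restrains transcription elongation, held 0.335%, 0.105%, 0.250%, 0.359%, 0.296% and 0.279%, and WT replicate 2 was at 0.346 of the others. The spliceosomal U1, U2 and U4 RNAs in WT replicate 2 were at 0.370, 0.461 and 0.376 of the mean of the others, 5S ribosomal RNA at 0.326 and the small-subunit SSU-rRNA_Hsa at 0.395. U5 and U6 were at 0.755 and 0.765, and LSU-rRNA_Hsa was at 0.990, so not every structural RNA was low there. The transfer RNA names tRNA-Leu-TTA_m_ and tRNA-Ser-TCA_m_ were highest in WT replicate 2, at 0.125% and 0.0235%.

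Simple repeats of 3 and 4 bases per unit were the largest groups, with 21.2% and 21.9% of simple-repeat counts, and units of 2 bases held 19.4%. The units that led are shown as the sequence repeated, as given in their names, because they carry the asymmetry described next. The repeat of ATT held 0.414% ± 0.0812 of all counts, that of T 0.384% ± 0.0178, that of TG 0.243% ± 0.0250 and that of A 0.209% ± 0.00849. With rotations of a unit counted together, ATT held 0.432% and its reverse complement AAT 0.0385%, an 11.2-fold difference. T exceeded A 1.84-fold, whereas AC and GT lay close, with a log2 ratio of -0.03 ± 0.05.

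Of 38 units compared with their reverse complements, 27 had more counts under the reverse complement in all 6 libraries, 4 had more under the unit, written with the alphabetically first letters, and 7 were mixed. For all 13 units made of A and G only, the complement of C and T had more counts in all 6 libraries, with log2 ratios of -4.501 to -0.51. CCCT exceeded AGGG 22.4-fold. How the letters of a name relate to the transcribed strand was not given, so these are asymmetries between names.

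Base makeup separated the libraries. Units of only A and T held 1.56% ± 0.0901 of counts. Units of only G and C held 0.106%, 0.0159%, 0.0720%, 0.0650%, 0.0692% and 0.0379% in WT replicates 1 to 6. WT replicate 2 was the lowest, WT replicate 6 next, and WT replicate 1 the highest, the order also seen at the ends of the range for 7SLRNA. Relative to the median library, WT replicate 2 was at 0.03 on the log2 scale for units without G or C, at -0.25 for units of 40 to 60% G and C, and at -2.08 for units of G and C alone. WT replicate 1 went from -0.13 to 0.66 over the same groups. This grouping was chosen after seeing the data, and the part of base makeup in the other differences between libraries was not tested.

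The spread between libraries was several times the counting error. Over the 526 names with at least 100 CPM the median coefficient of variation (CV) was 11.7%, against 1.36% for counting error alone. The median was 6.55% for SINE, 9.59% for DNA transposons, 11.98% for LTR, 13.7% for LINE and 11.4% for simple repeats. A CV above 20% was found for 70 names, and for 35 when WT replicate 2 was left out, which also lowered the median CV to 9.96%. The largest values outside simple repeats were those of 7SLRNA (51.3%), tRNA-Ser-TCA_m_ (48.1%), 5S (40.6%), the ERVK terminal repeat RLTR43C (36.6%) and U1 (35.9%). Each of these 5 rested in good part on WT replicate 2. Without it the CV was 27.2% for 7SLRNA, 30.2% for tRNA-Ser-TCA_m_, 26.0% for 5S, 22.9% for RLTR43C and 21.5% for U1, and for 7SK it was 14.3% in place of 33.2%. The smallest CV, 2.42%, belonged to MER53, a low-level DNA transposon for which counting error alone gives 2.45%, so no spread beyond counting was measurable. After it came MT2A (2.75%, and 1.61% without WT replicate 2), MT2B (2.92%), MIRb (3.07%) and ORR1D2 (3.40%).

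**Figure D5:**
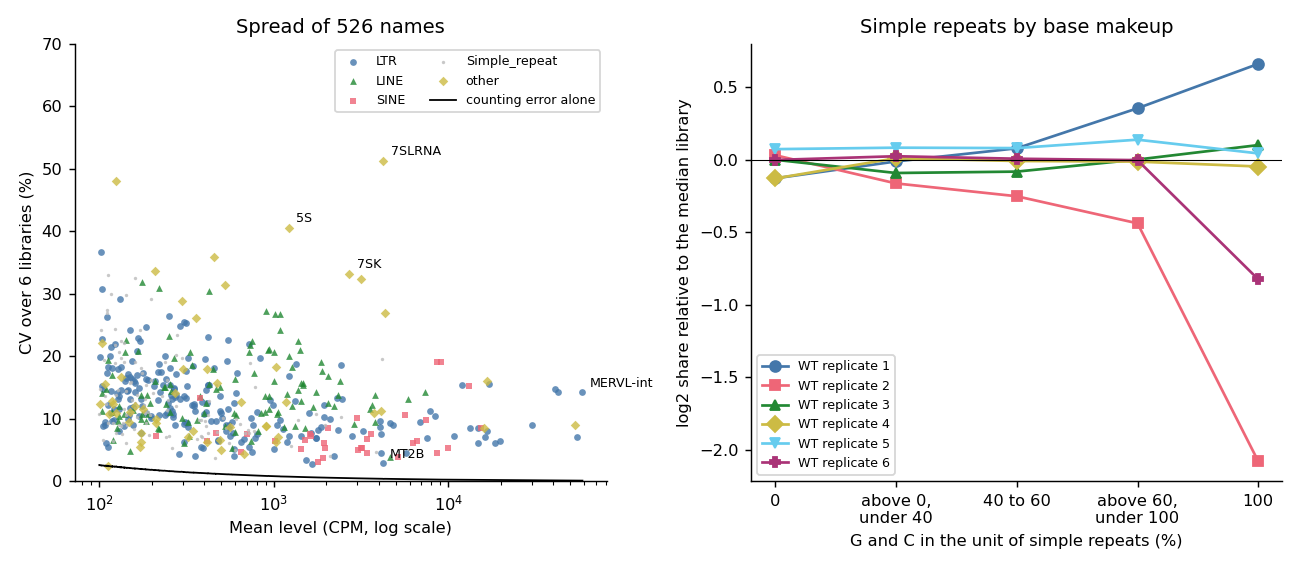
Left, CV over the 6 WT libraries (vertical axis, percent) against mean level (horizontal axis, CPM, log scale) for 526 names with at least 100 CPM, with the line showing the CV that counting error alone gives. Right, share of simple repeats grouped by the G and C content of the unit, as log2 relative to the median library, with 1 line for each library. 7SLRNA and 5S lie at the top of the left panel, and WT replicate 2 falls to -2.08 at the right end of the right panel.

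Some pairs of names had ratios that varied little between libraries. Among 143 names with at least 1000 CPM there were 10153 pairs, with a median SD of the log2 ratio over libraries of 0.21, and 170 pairs (1.67%) had an SD under 0.05. The count was 358 without WT replicate 2, 288 without WT replicate 4 and 264 without WT replicate 5. Of the 170 pairs, 89 (52.4%) joined names of one family and 53 (31.2%) joined different classes, against 13.4% and 74.4% of all 10153 pairs. The smallest SD, 0.0079, was that of MERVL_2A-int and ERVL-B4-int, at a ratio of 1.04, and MERVL-int and MERVL_2A-int had an SD of 0.013 at a ratio of 1.38. B3A, a SINE, and URR1A, a DNA transposon, had an SD of 0.011 at a ratio of 6.26, which was below the 0.012 that counting error gives. MTB and MLT1F-int had an SD of 0.014 at a ratio of 4.32, above the 0.0095 of counting error, and MTB_Mm and ORR1C2 one of 0.016 at a ratio of 1.49. These 5 pairs were picked for their small SD, so the values describe them and are no test. Whether names of a pair share reads was not tested.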

How the data were processed

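For each library the authors deposited a table of estimated counts, with 1 row for each repeat and columns naming its class and family. All values were whole numbers. Per the submitters' processing notes, the build was mm10, and Trimmomatic 0.32 and edgeR are named without a role. The aligner and the counting program were not given in the sources used here, and neither were the repeat annotation and the use of strand. The file titles mention unique reads as well as fractions, so fractional counts may have been rounded before deposit, which would matter for low names. How reads that fit several copies, or that lie in introns and untranslated regions of genes, were counted could change the levels of related names.

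Groups and replicate numbers came from the sample titles. Numbers in the file names run in another order, so a replicate number here is only a name. Every share, log2 ratio and CV was computed here from these counts, as a percent of each library's total over all rows. Exact permutation tests were coded directly in NumPy 2.4.6, with ranks from SciPy 1.17.1. TMM and RLE factors and dispersions used edgeR 4.0.16 in R 4.3.3. The median dispersion, as a biological CV, was 13.3% for the 526 names with at least 100 CPM. The scripts were tested on simulated data. Reads carry no molecular identifiers here, so counting errors cover counting only.

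The names described were the 20 highest, the 3 highest of each class with at least 0.1% of counts, the pairs and age groups with their highest names, the 5 names with the largest and the 5 with the smallest CV outside simple and low-complexity repeats, and the 5 steadiest ratios. Others were chosen after their values were seen. Internal names hold -int or a separate I, and age groups were set by name. The members and lists were chosen with earlier results of these data known. Alternatives were each library left out, pooled counts, other totals and filters, TMM and RLE factors, terminal names only, and names that may share reads left out. Libraries of embryos without maternal Kdm4a were not used here, and genome coordinates and repeat sequences were not analysed here.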

Additional observations from a re-analysis of the deposited data

Results flagged for a closer look

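Each value here comes from a group of 6 libraries in which the gap between 1 library and its nearest neighbour, divided by the whole range, exceeded Dixon's 95% limit. This held for 9 of 196 groups examined, and chance alone gives about 1 in 20. WT replicate 5 had an internal share of ERVL counts of 77.7%, against 80.8% to 82.2% in the others, and of 56.7%, against 60.9% to 63.2%, without the 3 names related to MERVL-int. WT replicate 4 had 2.80% of counts in older mouse LINE-1 names, against 2.14% to 2.37%. The same library had 1.73% for ORR1A0-int, against 1.94% to 2.06%, and 0.495% for Lx9, against 0.449% to 0.462%. In WT replicate 1 the log2 ratio of MERVL-int to MT2_Mm was 2.42, against 2.25 to 2.30. In WT replicate 2 the log2 ratio of internal to terminal counts was 2.03 for ORR1A1, against 2.21 to 2.27. It was 0.91 for MTC, against 1.08 to 1.15, and 0.80 for MTB, against 0.98 to 1.07.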

How the results depend on the processing

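No paired analysis was possible because a single group was described, so replicate numbers shared with the other genotype pair nothing. Shares moved with the total they were taken from. With only LTR, LINE, SINE and DNA counts in the total, LTR was 68.2%, SINE 16.9%, LINE 13.3% and DNA 1.53%. Without rRNA, LTR was 59.3% and simple repeats 6.65%. Without the 3 names related to MERVL-int, LTR was 51.0%, SINE 15.4%, LINE 12.2%, simple repeats 6.96%, rRNA 6.38%, low complexity 2.24%, DNA 1.39% and the internal share 61.2%. With terminal names only, the log2 ratios were 3.08 for MTA over MTE, 5.65 for ORR1A over ORR1G and -0.61 for MT2_Mm over the older MT2 names, where the sign turned because MERVL-int was left out. With the narrower list of young LINE-1 names, chosen after seeing the data, the log2 ratio was 0.00935 to mammal-wide and -1.56 to rodent names.

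The median CV was 17.5% from 10 CPM and 31.7% over every name counted in each library, where counting error is larger. The 1 correlated pair became 10 with TMM factors (the cause was not tested), 0 from 10 CPM, where more pairs enter the adjustment, and 0 to 0 with each library left out, where no exact permutation p can be below 0.00833. The 170 near-constant ratios became 521 from 100 CPM and 191 to 358 with 1 library left out, with 358 without WT replicate 2, 288 without WT replicate 4 and 264 without WT replicate 5. The smallest exact permutation p at 6 libraries and their number limit the precision.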
